A study of Arabidopsis thaliana with 6 samples.

Results

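AT4G16870 is a locus on chromosome 4 of Arabidopsis thaliana, the thale cress, that RefSeq assembly TAIR10.1 types as a pseudogene, a type under which RefSeq files the transposable element genes of this plant along with its other pseudogenes. It was read by 1 probe set, 245449_at, a group of short oligonucleotides on a 1-colour array, out of 22746 probe sets that are not controls. It was singled out because, among 923 probe sets of pseudogene-type loci, it was the only one whose signal was at least 2-fold lower in ddm1 mutants than in wild type. Its 6 values and the difference between genotypes are therefore given as a description, with no test. For context, every probe set that names a single gene from AT4G16800 to AT4G17000 was taken, which gave 13 further probe sets of 12 loci. Those probe sets were chosen by position, and their differences were tested.

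The tissue was unopened flower buds. The mutant group holds 3 arrays of ddm1 plants in inbred generation 6, and the labels do not name the allele. The wild type group holds 3 arrays of the Columbia accession, with no inbred generation stated. All plants grew on soil at 23 °C under 18 hours of light a day. Since only the mutants carry a stated inbreeding history, loss of DDM1 and that history cannot be told apart. DDM1 itself was read by 0 single-gene probe sets and gives no check of the labels.

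DDM1 is a chromatin remodelling protein that gives DNA methyltransferases access to heterochromatin, and many transposable elements that are silent in wild type are transcribed in its absence. AT4G16870 lies next to RPP4 in a cluster of related immune receptor genes that also holds SNC1 and RPP5. These receptors, called TIR-NLR proteins, detect pathogens inside the cell. RPP4 and RPP5 give resistance to a downy mildew, and gain-of-function forms of SNC1 switch on defence without infection. A heritable state of the same cluster with raised SNC1 expression, called bal, was isolated from a ddm1 background.

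The deposited values are log2 expression, with each probe set centred on a baseline that the sources used here do not name. A value of 0 means equal to that baseline, and differences between arrays are kept. The level of a transcript is not, so whether AT4G16870 lay near background in ddm1 is unknown. How far it lay above background in wild type is also unknown, and the identity of the tissue could not be checked from marker levels. Array medians lay between -0.00642 and 0.0175. Of the 22746 probe sets, 83.7% held an exact 0 in at least 1 array. AT4G16870 held an exact 0 in 0 arrays, so its baseline was not the value of any of these 6 arrays.

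AT4G16870 stood below its baseline in every ddm1 array and above it in every wild type array. Its centred log2 values were -2.27, -1.88 and -3.64 in ddm1 replicates 1, 2 and 3, against 0.77, 0.96 and 0.56 in wild type replicates 1, 2 and 3. The genotypes did not overlap, and the gap between the highest ddm1 array and the lowest wild type array was 2.44. The mean was -2.60 ± 0.92 in ddm1 and 0.76 ± 0.199 in wild type (SD, n = 3 each). The log2 difference of ddm1 from wild type was -3.36 ± 0.47 (SE of the limma fit), a signal 10.3-fold lower in ddm1. Over the 9 pairings of a ddm1 with a wild type array the difference ran from -4.59 to -2.44, or from 24.1-fold to 5.44-fold lower in ddm1. In whole buds, fewer cells that transcribe a locus and less RNA per cell cannot be told apart.

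The ddm1 arrays differed among themselves far more than the wild type arrays did. The 3 ddm1 values spanned 1.75 and the 3 wild type values spanned 0.40, and the SD in ddm1 was 4.63 times that in wild type. Replicate 3 of ddm1 lay 1.56 below the mean of the other ddm1 replicates (log2 difference -1.56). Without it the difference between genotypes was -2.84 ± 0.18 (SE), and without ddm1 replicate 2, the least lowered array, it was -3.72 ± 0.43. Only 0.453% of all probe sets had an SD as large as this among the ddm1 arrays, whereas 10.2% had an SD at least as large as that of AT4G16870 among the wild type arrays.

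The spread was also above the median of other lowered probe sets. Of the 445 probe sets whose mean was at least 2-fold lower in ddm1, taken by size alone and with no p-value, AT4G16870 had the 11th largest SD among ddm1 arrays. The median SD of the 445 was 0.279 in ddm1 and 0.155 in wild type, and 320 of them varied more in ddm1 than in wild type. Replicate 1 was the lowest ddm1 array at 271 of the 445, replicate 2 at 97 and replicate 3, the lowest at AT4G16870, at 77. The order seen at AT4G16870, with replicate 3 below replicate 1 and replicate 1 below replicate 2, occurred at 40 of the 445. The plot of SD against difference places AT4G16870 among these probe sets.

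**Figure D1:**
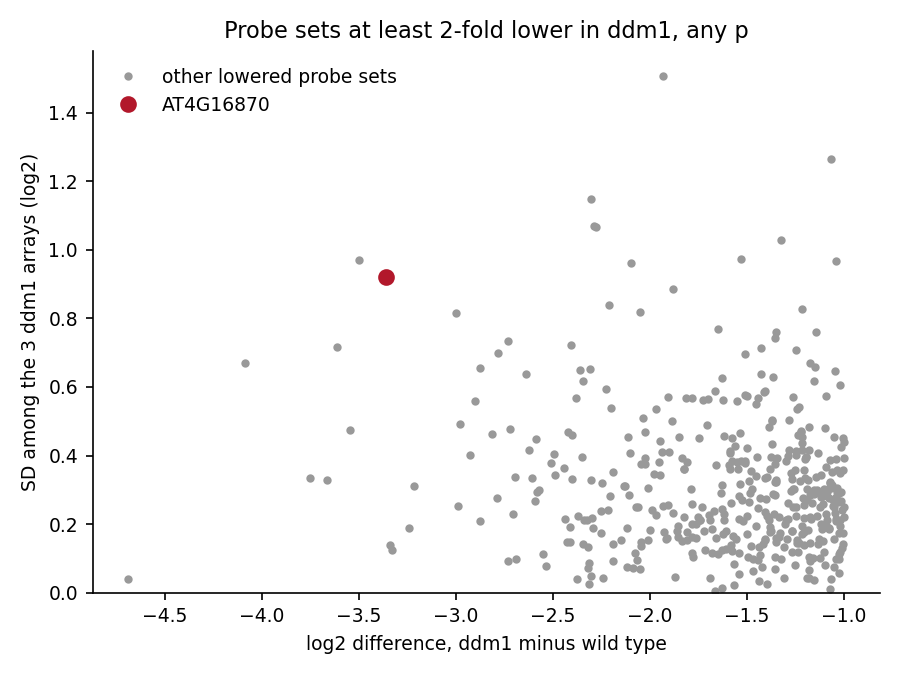
Standard deviation among the 3 ddm1 arrays (y axis, log2 units) against the log2 difference of ddm1 from wild type (x axis) for the 445 probe sets whose mean was at least 2-fold lower in ddm1, whatever their p-value; each point is a probe set. AT4G16870 (red) lies at -3.36 with an SD of 0.92, where the median SD is 0.279.

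Most other pseudogene-type loci differed little, and those that differed much were mostly higher in ddm1. Of the other 922 such probe sets, 881 had a positive difference and 41 a negative one, and their median difference was only 0.048. Over all 22746 probe sets, 11888 were positive and the median was 0.004. Over the whole class, 24.6% were higher in ddm1 at an adjusted p under 0.05 and 0.325% were lower, against 3.5% higher and 5.68% lower over all probe sets. AT4G16870 belongs to the contrast that chose it, so nothing is read from its own place in these shares. By rank, its difference was the 8th most negative of the 22746 probe sets and the 4th most negative of the 13436 that name 1 gene of the RefSeq table.

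The pseudogene-type loci just outside the 2-fold limit were far from it. AT1G35612 stood at -0.08, -0.38 and -0.22 in ddm1, against 0.39, 0.66 and 0.30 in wild type, a difference of -0.68 ± 0.12 (SE). AT3G62520 was at -0.60 ± 0.24, with 1 ddm1 array inside the wild type range, and AT4G08110 at -0.40 ± 0.20. AT5G50315, named after its values were seen, was at -0.38 ± 0.04. Besides AT4G16870, AT1G35612 and AT5G50315 were the loci of the class counted above as lower at an adjusted p under 0.05 (limma). Neither these nor AT4G08110 overlapped between genotypes, where 27.2% of all probe sets showed no overlap. The histogram of the class shows the empty stretch between AT4G16870 and these loci.

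**Figure D2:**
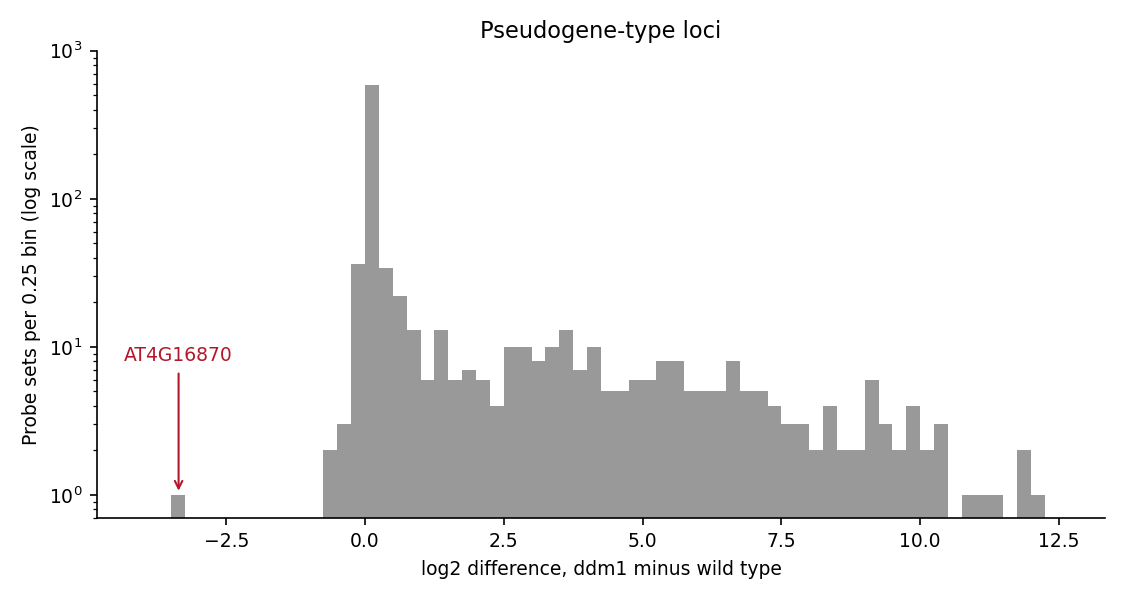
Number of pseudogene-type probe sets (y axis, log scale) by log2 difference of ddm1 from wild type (x axis, bins of 0.25), 923 in all. AT4G16870, marked by the arrow at -3.36, stands apart from the next most negative locus at -0.68, and the rest of the distribution reaches up to 12.15.

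The surroundings of AT4G16870 held few pseudogene-type loci, unlike pericentromeric heterochromatin, where such loci are dense. Of the 25 consecutive RefSeq loci centred on it, counted whatever their names, 2 were pseudogene-type, itself included. Of 130 other pseudogene-type probe sets whose windows were no richer than that, 30 were higher in ddm1 (23.1%) and 1 was lower (0.769%, limma, adjusted p under 0.05), near the shares of the whole class (24.6% and 0.325%) and beside 3.5% and 5.68% of all probe sets. Their differences ran from -0.38 to 9.79 with a median of 0.026.

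The measured pseudogene-type loci nearest to AT4G16870 were also examined, 5 on each side along chromosome 4. Of these 10, 3 rose in ddm1 and 0 fell (limma), near the 24.6% higher and 0.325% lower of the whole class, AT4G16870 included. Over all probe sets, 3.5% were called higher and 5.68% lower. Of the others among the 10, 0 reached an unadjusted p under 0.05, which 23.1% of all probe sets did. AT4G18420 rose most, with values of 5.002, 5.07 and 5.22 in ddm1 against -0.43, -0.93 and -0.40 in wild type (difference 5.68 ± 0.16 SE, limma adjusted p = 2.18e-05). AT4G15590 had 1.30, 1.13 and 1.36 in ddm1 against 0.00, -0.18 and -0.13 in wild type (1.36 ± 0.08, limma adjusted p = 0.000527). AT4G18410 had 0.96, 0.54 and 1.18 in ddm1 against -0.03, -0.02 and 0.00 in wild type (0.91 ± 0.16, limma adjusted p = 0.0312). At all 3 every ddm1 array was above every wild type array, where 27.2% of all probe sets showed no overlap in either direction. The other 7 had differences between -0.01 and 0.07, among them AT4G16910, the pseudogene-type locus closest to AT4G16870.

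**Figure D3:**
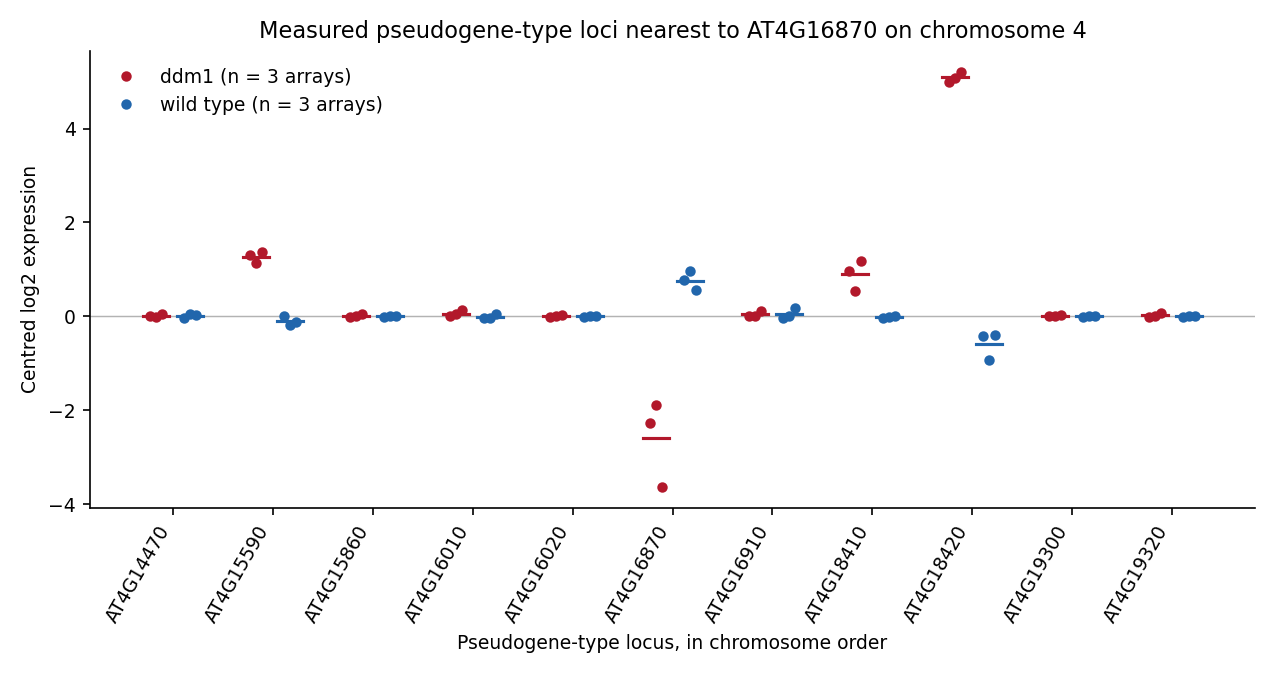
Centred log2 expression (y axis) of AT4G16870 and the 5 nearest measured pseudogene-type loci on each side, in chromosome order (x axis). Points are arrays (ddm1 red, wild type blue, n = 3 each) and bars are means. AT4G16870 is lower in ddm1 (-3.36), whereas AT4G15590, AT4G18410 and AT4G18420 are higher (1.36, 0.91 and 5.68).

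RefSeq lists 32 loci from AT4G16800 to AT4G17000, and 13 of them were read by a probe set of their own. The receptor genes RPP4, SNC1 and RPP5 were not analysed here, nor were RLM3, another disease resistance gene, and VRN2, which encodes a Polycomb group protein of the vernalization response. Among the 32 loci, AT4G16870 is followed directly by RPP4. The nearest measured locus on the RPP4 side was AT4G16880, beyond RPP4 itself. The nearest on the other side was AT4G16850, with 2 of the 32 loci in between.

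None of the measured neighbours passed the test. Of the 13 neighbouring probe sets, 0 were called in either direction by limma at an adjusted p under 0.05, where 9.17% of all probe sets were called, and 0 had an unadjusted p under 0.05, against 23.1% of all probe sets. Their adjusted p-values lay between 0.217 and 0.95. Their differences ran from -0.20 to 0.36, with 7 negative and 6 positive, a median of -0.004 and a median size of 0.084, beside 0.004 and 0.086 over all probe sets. The 95% confidence intervals of the 13 differences together reached from -0.49 to 0.77. The centred values carry no level, so whether these probe sets read signal above background is unknown. A small difference here therefore need not mean unchanged expression.

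The replicates spread less at the neighbours than at AT4G16870. The largest SD among them was 0.319 in ddm1, at AT4G16880, and 0.202 in wild type, at AT4G16840. The genotypes did not overlap at 2 of the 13, AT4G16880 and AT4G16800, where 27.2% of all probe sets showed no overlap. An exact 0 was present in 12 of the 13.

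AT4G16880, which lies between RPP4 and SNC1, was the neighbour with the largest difference, and its sign was opposite to that of AT4G16870. It had 0.07, 0.20 and 0.68 in ddm1 replicates 1, 2 and 3, against 0.00, -0.05 and -0.09 in wild type, so that every ddm1 array was above every wild type array. The difference was 0.36 ± 0.16 (SE, 95% interval -0.05 to 0.77, limma adjusted p = 0.264). Replicate 3 of ddm1 was the highest array at AT4G16880 and the lowest at AT4G16870. Without that array the difference at AT4G16880 was 0.18 ± 0.05. Replicate 3 was also the highest ddm1 array at most other neighbouring probe sets, so this is not particular to AT4G16880. The exceptions were AT4G16830, AT4G16850 and probe set 245318_at of AT4G16980.

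The loci on the far side of SNC1 were close to flat. AT4G16900 had 0.15, 0.00 and 0.21 in ddm1 against -0.01, -0.01 and 0.00 in wild type, overlapping at ddm1 replicate 2 (0.12 ± 0.06, limma adjusted p = 0.284). AT4G16910, the other measured pseudogene-type locus of the stretch, had 0.00, 0.01 and 0.11 in ddm1 against -0.03, 0.00 and 0.17 in wild type, with a 95% interval of -0.17 to 0.16. For AT4G16920 the interval was -0.10 to 0.09, and for AT4G16930 it was -0.07 to 0.18. A probe set that reads both AT4G16940 and AT4G16960, on either side of RPP5, differed by 0.01 ± 0.03 with an interval of -0.07 to 0.09. It was left out of the counts because it names several genes.

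Beyond the receptor cluster, AT4G16970 differed by -0.08 ± 0.07 and AT4G17000 by -0.20 ± 0.12, and both overlapped between genotypes. AT4G16980 was read by 2 probe sets that gave unlike values. Probe set 245318_at had 0.00, 0.37 and 0.33 in ddm1 against -0.06, 0.02 and -0.02 in wild type (0.25 ± 0.11, limma adjusted p = 0.237), and without ddm1 replicate 1 it passed the test at 0.37 ± 0.04 (limma adjusted p = 0.0123). Probe set 245459_at differed by 0.02 ± 0.03.

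On the side away from RPP4, AT4G16800 had -0.05, 0.00 and 0.06 in ddm1 against 0.10, 0.07 and 0.16 in wild type. Every ddm1 array was below every wild type array, and the difference of -0.11 ± 0.04 missed the threshold (limma adjusted p = 0.217). AT4G16830, AT4G16840 and AT4G16850 differed by 0.07 ± 0.06, -0.11 ± 0.10 and -0.04 ± 0.08, and all overlapped. At AT4G16840 the wild type mean rested on replicate 3, which stood at 0.35 where the other wild type arrays were at 0.00.

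**Figure D4:**
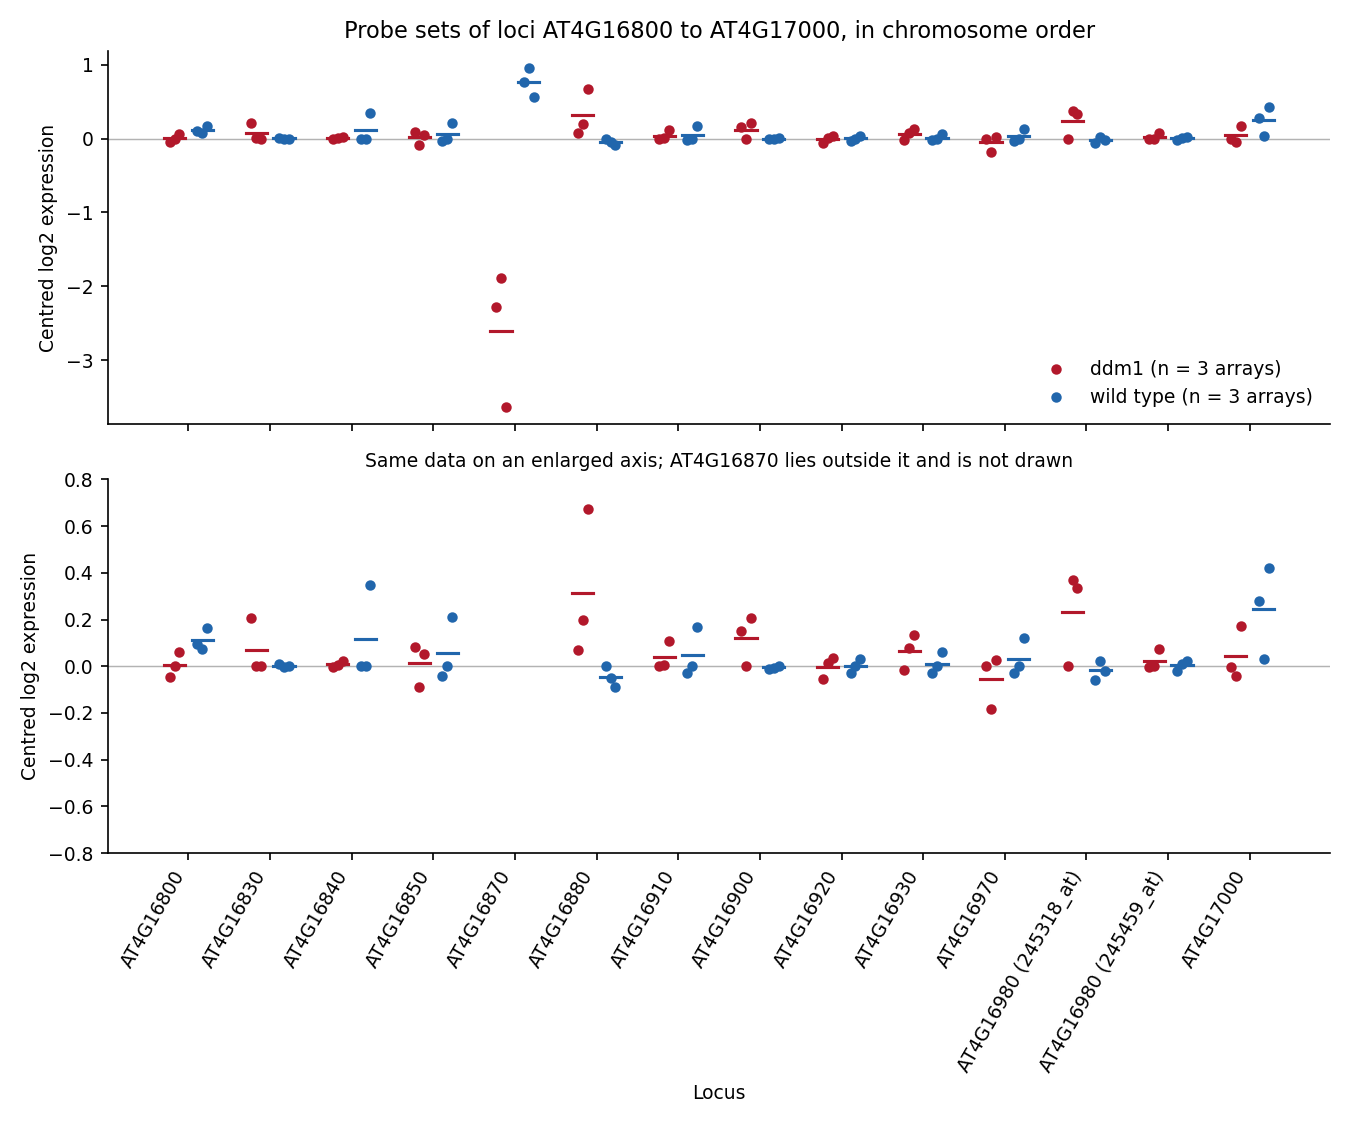
Centred log2 expression (y axis) of the 14 single-gene probe sets from AT4G16800 to AT4G17000 in chromosome order (x axis), with the lower panel on an enlarged axis. Points are arrays (ddm1 red, wild type blue, n = 3 each) and bars are means. At AT4G16870 the genotypes differ by -3.36, and the 13 neighbouring differences lie between -0.20 and 0.36.

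Few genes that act with TIR-NLR receptors could be followed by name. Others may be among the probe sets for which the array's annotation names several genes or none. Of 31 genes for receptor signalling and salicylic acid, 1 was read by its own probe set, SAG101, a partner of the signalling protein EDS1. SAG101 had 1.22, 0.68 and 0.04 in ddm1 replicates 1, 2 and 3 against -0.04, -0.02 and 0.00 in wild type (0.66 ± 0.29 SE, limma adjusted p = 0.257). The ddm1 replicate with the lowest SAG101 value, replicate 3, was also the one with the lowest AT4G16870 value. The highest ddm1 array was not the same, being replicate 1 at SAG101 and replicate 2 at AT4G16870. A link between the 2 genes was not tested. Of 20 named resistance genes outside the cluster 3 were measured, and limma called 0 of them, with 0 at an unadjusted p under 0.05, beside 9.17% and 23.1% of all probe sets, and 3 genes are too few to set against these shares. These were AT4G19500 (0.03 ± 0.08), AT4G19510 (-0.11 ± 0.07) and AT1G17600 (0.02 ± 0.03), to which RefSeq gives no symbol.

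The genes whose profiles were most like that of AT4G16870 lay elsewhere in the genome. Likeness was measured over the 6 arrays as the root mean square distance between profiles, each first centred on its own mean. With only 6 arrays in 2 genotypes, this measure mostly finds probe sets lowered by a similar amount. The nearest was CHX19, a cation/H+ exchanger gene on chromosome 3, at a distance of 0.39. It had -3.09, -2.42 and -3.38 in ddm1 replicates 1, 2 and 3 against 0.06, 0.00 and 0.00 in wild type, a difference of -2.98. CHX19 shared with AT4G16870 the order of the ddm1 replicates.

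AT4G11030 came next at a distance of 0.54, with -2.38, -2.01 and -2.76 in ddm1 against 0.16, 0.22 and 0.00 in wild type. It showed the same order of ddm1 replicates over a narrower span. AT4G10440 (0.54), AT1G71680 (0.59) and AT5G42170 (0.60) followed, with differences of -2.88, -2.93 and -3.22, and in all 3 of them ddm1 replicate 1 was the lowest. The 13 neighbouring probe sets were at distances of 1.70 to 1.99. By Pearson's correlation, which ignores size, the 5 closest genes were different ones, with 0 shared. They were AT5G54130, AT1G07750, AT5G18550, AT4G34360 and AT1G54020, with r from 0.993 to 0.998 and differences of only -0.37 to -0.88.

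**Figure D5:**
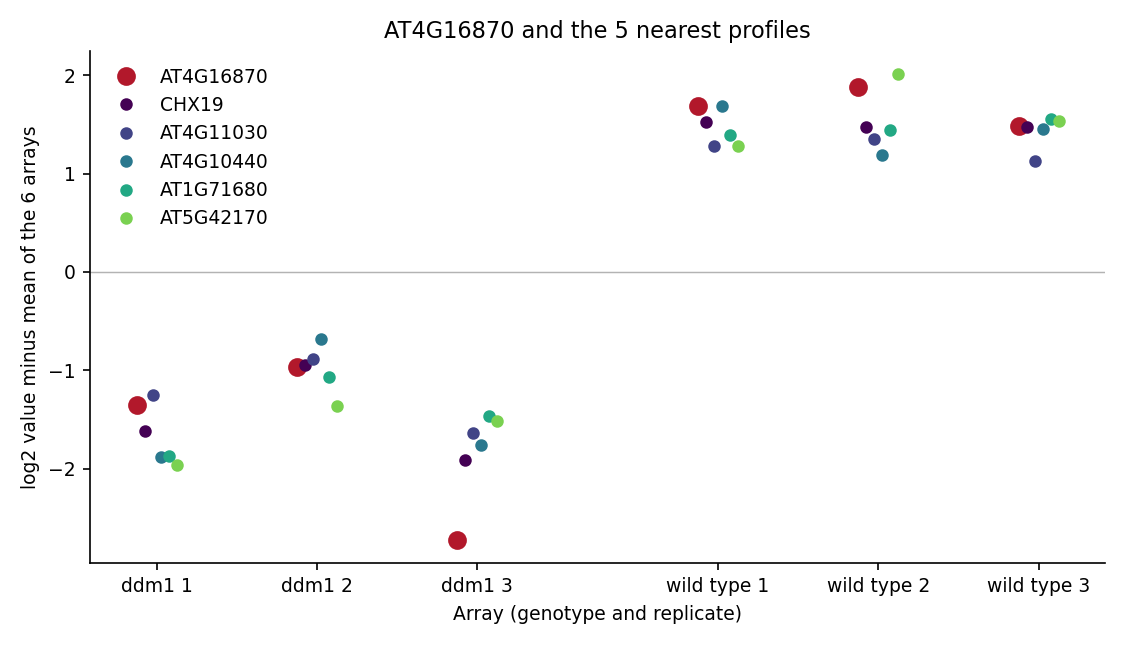
Profiles of AT4G16870 (large red points) and the 5 genes at the smallest distance from it, as log2 values minus the mean of the 6 arrays (y axis) for each array (x axis). All 6 are low in ddm1 and high in wild type, and AT4G16870 is the lowest of them in ddm1 replicate 3.

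Markers of some bud cell types also differed between the genotypes. The marker lists were written with earlier results of these data known. Their counts therefore describe the listed genes, and no excess over the share of all probe sets is read from them. Of 11 measured pollen genes out of 13, 6 fell in ddm1 and 0 rose (limma, against 5.68% and 3.5% of all probe sets), with a median difference of -0.717 over the 11. The sugar transporter gene VEX1 of the pollen vegetative cell fell most (-3.61 ± 0.36 SE, limma adjusted p = 0.00463), followed by the list member AT5G45880 (-1.93 ± 0.11) and the reproductive actin gene ACT12 (-1.78 ± 0.09). AGL66, a MADS-box regulator of pollen, fell by 0.65 on the log2 scale. HTR10 (-0.93 ± 0.13) and AGL30 (-0.81 ± 0.12) were the other genes called lower. AGL104 (-0.72 ± 0.27) and AGL65 (-0.10 ± 0.06) were not called. ANX1 (0.01 ± 0.03), ACT11 (0.03 ± 0.13) and ANX2 (-0.01 ± 0.05) were not called either and hardly differed, so the fall was not shared by all measured pollen genes. The median of the pollen list was -0.63, -0.658 and -0.615 in ddm1 replicates 1, 2 and 3, against 0, 0.048 and 0 in wild type. Single members spread more than the median, as VEX1 did with -4.29, -2.97 and -3.14 in ddm1 against 0.00, 0.14 and 0.29 in wild type.

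In the tapetum, the layer that feeds developing pollen, 2 of 3 measured genes out of 9 fell, the tapetal regulator AMS (-1.23 ± 0.08) and AT5G07230 (-1.08 ± 0.10), while SPL stood at -0.82 ± 0.26 and was not called by limma. Of 3 measured genes of green tissue out of 6, 1 rose, LHCB4.2 (0.38 ± 0.05), beside LHCB4.1 (0.35 ± 0.09) and RCA (0.20 ± 0.05), which were not called. Of 4 measured genes out of 12 in a list of floral organ identity and flower development, limma called 0. SPT (0.29 ± 0.10) had an unadjusted p under 0.05, as 23.1% of all probe sets did, beside AGL24 (0.41 ± 0.28), INO (-0.08 ± 0.08) and UFO (0.00 ± 0.03). The organ identity genes AP1, AP3, PI and AG of that list were not among the 4, so these values do not describe them. Whether AT4G16870 is transcribed in any of these cell types was not measured, and the part of cell composition in its lower value was not tested.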

How the data were processed

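The deposited table holds log2 expression values, centred per probe set; the authors used GCRMA, per the submitters' processing notes, in a version the labels do not give. The log base is an inference from GCRMA and the values' range. With the level unknown, the size of a fall towards background may be understated or overstated. Control probe sets (64) were dropped, and the other 22746 were tested with limma 3.58.1 in R 4.3.3 (lmFit and eBayes, genotype the only term, 6 arrays), two-sided, with Benjamini-Hochberg adjustment over all of them and a threshold of 0.05. The labels call the replicates biological. The array's annotation names 1 gene for 13513 probe sets, several for 503 and none for 8730, and 13436 of the first kind were matched by gene number to RefSeq TAIR10.1, which gave types, symbols and the order of loci. No coordinates are printed because no source used here gives the array's build. Sequences were not used here.

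The locus, the gene lists and the rule for named genes (the locus, its stretch, the 5 nearest profiles, the next 3 pseudogene-type loci and up to 4 members a list) were chosen with earlier results of these data known. The 10 flanking pseudogene-type loci, the comparison by window richness and the set lowered by size alone were added after the data were seen. Lists of TIR-NBS-LRR and copia-like loci were not analysed here, since the tables used give no descriptions. Alternatives left out each array, added the replicate number as a block, centred arrays on their medians, changed the variance model or weighted arrays. The fit was tested on simulated data in which both genotypes had the wild type spread. That test does not show how the calls behave where ddm1 arrays vary more. The labels do not say that a replicate number marks a shared batch, so the numbers were not taken to pair arrays. Same-numbered arrays correlated in their deviations from the genotype means at 0.0752, 0.09 and 0.0159. Differently numbered arrays of the 2 genotypes correlated at -0.0907 to 0.0229, and pairing was not tested. Figures used Python 3.11.15 with matplotlib 3.10.9.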

Additional observations from a re-analysis of the deposited data

How the results depend on the processing

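The difference at AT4G16870 was negative in every alternative run, from -3.72 to -2.84 when 1 array was left out, -3.36 with a replicate block, -3.04 from medians of arrays (chosen after seeing the data) and -2.81 with array weights, which gave ddm1 replicate 2 a weight of 5.59. Among the 13 neighbouring probe sets, 0 were called lower under every alternative, the replicate block included, and 0 to 1 higher when 1 array was left out. Array weights also called 1 higher. In both cases this was probe set 245318_at of AT4G16980. Of 143 neighbour values under alternatives, 141 kept their side of the threshold and 2 gained a call.

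Among all probe sets tested, 795 were called higher and 1291 lower. With 1 array left out these counts were 432 to 788 and 629 to 1011, with the lowest counts without wild type replicate 1. The counts were 433 and 553 with a replicate block, 373 and 429 without variance moderation, 2185 and 3597 with array weights, and 379 and 391 for changes of at least 2-fold. Pearson's correlation shared 0 of the 5 nearest profiles. Quantile normalization was not run, because the centred values carry no level. For all of these shifts, the cause was not tested. Signal over background is unknown.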
